A study of Homo sapiens with 8 samples.

Results

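The genes described here encode enzymes that metabolize drugs, alcohols, aldehydes and steroids. They were taken by gene symbol: cytochrome P450 (CYP), glucuronosyltransferase (UGT), sulfotransferase (SULT), glutathione transferase (GST), alcohol dehydrogenase (ADH), aldehyde dehydrogenase (ALDH), carboxylesterase (CES), flavin monooxygenase (FMO) and AKR1 aldo-keto reductase symbols, together with NAT1, NAT2, AADAC and TPMT. This rule found 96 of the 17076 genes listed in the deposited tables. ALDH2 does not match the symbol pattern used, so it is not among the 96 genes or in the aldehyde dehydrogenase counts below. The expression values were FPKM, fragment counts scaled to transcript length and to the mapped fragments of the library. They were measured in Huh7, a human cell line established from a hepatocellular carcinoma. Cells had been transfected with a scrambled siRNA (siControl), an siRNA against UPF1 (siUPF1), a control MYC vector (MYC) or a MYC-UPF1 overexpression vector (MYC-UPF1), where MYC names the epitope tag of the vector. Which siRNA against UPF1 was sequenced is not given in the sources used here. Each of the 4 groups had 2 libraries. The sources used here do not say that the libraries of a group came from separate cultures, so p-values measure the spread between these libraries, which may be technical.

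Foreign and waste compounds are handled in the liver by a chain of enzymes. Cytochrome P450s, flavin monooxygenases, dehydrogenases, reductases and esterases expose or add a reactive group, and glucuronosyltransferases, sulfotransferases, glutathione transferases and acetyl- or methyltransferases then attach a polar molecule that allows excretion. Hepatocytes hold these enzymes at high levels, and many of their genes respond to nuclear receptors and to the aryl hydrocarbon receptor, which senses planar aromatic chemicals. UPF1 is an RNA helicase required for nonsense-mediated mRNA decay (NMD), which degrades transcripts with a premature stop codon and a number of normal ones.

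UPF1 itself followed the labels. It was at 44.5 and 47.4 FPKM in siControl, 20.7 and 21.9 in siUPF1, 45.1 and 57.4 in MYC, and 2835 and 2484 in MYC-UPF1. All 10 hepatocyte markers examined, among them ALB and AFP, were listed, with a summed level of 20991 to 24477 FPKM. The listed markers of other cells summed to 49.9 to 59.4 FPKM for cholangiocytes (4 of 5 listed), 166 to 233 for leukocytes (3 of 6 listed) and 1.24 to 1.76 for endothelial or stromal cells (3 of 8 listed). Their part in the results below was not tested. The tables hold no read counts, so depth and counting error are unknown.

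Members of the UGT1A locus share most of their transcript, which decides how far their levels can be told apart. Each UGT1A enzyme is made from its own first exon, which encodes the part that recognizes the substrate, spliced to the same further exons. On chromosome 2 of GRCh37 (hg19), plus strand, the first exon of UGT1A6 lay at chr2:234601536-234602511, that of UGT1A1 at chr2:234668916-234669797, and the shared second exon at chr2:234675680-234675811. The junctions below, read from GRCh37, give the last 15 bases of each first exon in lower case and the first 15 bases of the shared second exon in capitals, to show where sequence particular to a gene ends and shared sequence begins.
UGT1A1: aatccactatcccagGAATTTGAAGCCTAC
UGT1A3: aagccactatctcagGAATTTGAAGCCTAC
UGT1A6: aaagacttgtctcagGAATTTGAAGCCTAC
UGT1A7: aagccagtgcctatgGAATTTGAAGCCTAC
UGT1A9: aagccgttgcctatgGAATTTGAAGCCTAC
UGT1A10: aagccattgcctatgGAATTTGAAGCCTAC
The exons after the first were identical in these 6 genes and made up 60.2 to 62.6% of the transcript. Fragments from the shared exons fit every gene of the locus, and the deposited values do not show how they were divided, so each UGT1A level is uncertain. In 12 of the 96 genes, over 50% of all 100-base windows of the transcript also occurred in another gene. Besides the 6 UGT1A genes these were SULT1A3 (100% shared), SULT1A4 (99.8%), CYP51A1 (89.9%, with an overlapping annotated gene), SULT1A1 (77.6%), GSTT2 (71.6%) and CYP3A7 (71.1%).

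Glutathione conjugation and aldehyde oxidation held the most abundant of the enzyme transcripts. GSTP1, the pi-class glutathione transferase, had the highest mean over the 8 libraries at 1211 FPKM, with libraries from 1069.6 to 1336. ALDH1A1, which oxidizes retinaldehyde and acetaldehyde, followed at 416 FPKM with a range of 339 to 539. Together they made up 60.7 to 64.9% of the summed FPKM of the 96 genes in each library, and the 96 genes made up 0.527 to 0.684% of the summed FPKM of all listed genes. GSTO1 (166 FPKM), GSTK1 (91.4), the proline synthesis enzyme ALDH18A1 (88.0), the sterol demethylase CYP51A1 (74.0), AKR1A1 (58.6) and the formaldehyde-detoxifying ADH5 (57.7) came next. Over the 8 libraries, the ranges of GSTK1, ALDH18A1, CYP51A1, AKR1A1 and ADH5 each overlapped that of the next, so the order of neighbours among them cannot be read.

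Below these, ALDH4A1 of proline breakdown had a mean of 31.2 FPKM, CYP1A1 25.9, the bile acid synthesis enzyme CYP27A1 23.4 and SULT2A1, which sulfonates steroids and bile acids, 22.8. The highest members of the other families were CYP4F12 at 21.8 FPKM among the fatty acid and vitamin P450s, AADAC at 20.8 among the esterases, UGT2B4 at 17.5 among the glucuronosyltransferases, TPMT, which methylates thiopurine drugs, at 5.85, and FMO5 at 3.93. Of the 96 genes, 3 had a mean of 100 FPKM or more, 22 from 10 to under 100, 30 from 1 to under 10, 12 from 0.5 to under 1 and 29 under 0.5. The median of the member means was 1.69 FPKM, beside 3.98 for all listed genes. The classical ethanol-oxidizing ADH1A and ADH1C were among the lowest, with means of 0.257 and 0.174 FPKM.

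**Figure D1:**
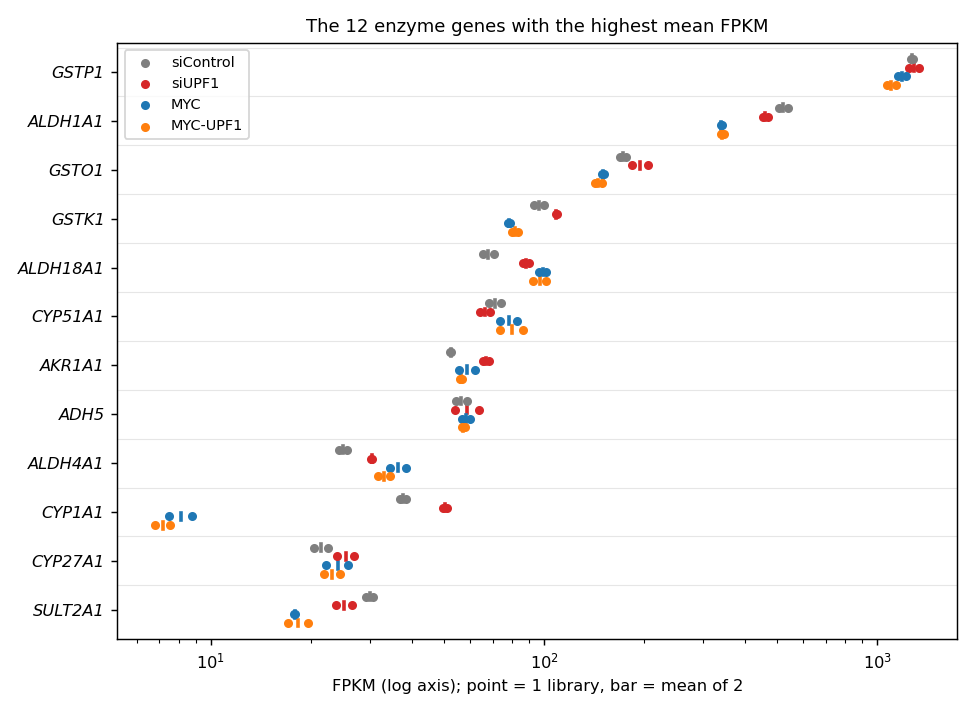
FPKM (log axis) of the 12 enzyme genes with the highest mean in siControl, siUPF1, MYC and MYC-UPF1; a point is 1 library and a bar the mean of 2. GSTP1 and ALDH1A1 stand above the others, and CYP1A1 is the gene whose plasmid libraries lie farthest below its siRNA libraries, at 6.82 to 8.77 against 36.9 to 51.2 FPKM.

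The first comparison asked how enzyme transcripts changed when UPF1 was depleted. AADAC, FMO1 and the UGT1A genes UGT1A6 and UGT1A1 fell, with fatty aldehyde and steroid enzymes, while GSTZ1, ALDH3B1, CYP1A1 and others rose. Whether more rose than fell depended on the scaling of the libraries, as given below. Genes with a mean of at least 0.5 FPKM over the 4 libraries were tested on log2(FPKM + 1) with limma, and log2 fold changes are on this scale, which understates the change of low genes. Of the 96 genes, 72 were tested and 24 lay under the minimum. At an unadjusted limma p of 0.05 or lower, 17 were higher, 23.6% of those tested beside 16% of all tested genes, and 9 were lower, 12.5% beside 5.51%. The limma adjusted p of these 26 genes ranged from 0.0731 to 0.216, so none passed 0.05, which 0.0369% of all tested genes did. The median log2 fold change was 0.05 over the 72 genes and 0.06 over all tested genes. Without any overlap between the libraries of the groups, 32 were higher, beside a background of 37.5%, and 19 lower, beside 18.5%. With 2 libraries a group, an exact two-sided permutation test of a single gene cannot go below p = 0.333.

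AADAC, arylacetamide deacetylase, is a hydrolase of the endoplasmic reticulum that removes acetyl groups from drugs, and its gene lies at chr3:151531861-151546276 (GRCh37, plus strand). It was at 26.6 and 31.7 FPKM in siControl and at 19.5 and 14.1 in siUPF1. Both siUPF1 libraries lay below both controls, at 0.578 of the control mean. The log2 fold change was −0.77 ± 0.16 (SE), with a limma p of 0.00205 and a limma adjusted p of 0.0835. Leaving out each library in turn gave −0.99 to −0.55, each with an unadjusted limma p of 0.05 or lower. AADAC was also the gene of lowest GC content among the 26, at 38.4% of its transcript, and with the trend of each library along GC content and transcript length removed its log2 fold change was −0.65. The 10 hepatocyte markers summed to 20991 to 23008 FPKM in siControl and 21218 to 21517 in siUPF1. Of these 10 markers, 5 had a positive log2 fold change, and the median was −3.7e-05. At an unadjusted limma p of 0.05 or lower, 2 were lower, APOH (−0.53) and AHSG (−0.27), and 0 higher. The part of these markers in the result was not tested. In bulk RNA, fewer cells with a transcript and less transcript in each cell cannot be told apart.

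FMO1, a flavin monooxygenase that oxidizes nitrogen and sulfur atoms of drugs, was at 1.84 and 1.50 FPKM in siControl and 0.746 and 0.622 in siUPF1. The groups did not overlap and the log2 fold change was −0.66 ± 0.11 (SE), with a limma adjusted p of 0.0731. FMO4 and FMO5 were also tested and did not pass the unadjusted threshold. Among FMO1, FMO4 and FMO5, only FMO1 therefore had a call, and whether its change differs from that of the other two was not tested.

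UGT1A6, which conjugates small planar phenols such as paracetamol, was at 0.748 and 1.39 FPKM in siControl and 0.482 and 0.479 in siUPF1. The siUPF1 libraries were both lower, although the control libraries were themselves far apart. Both siUPF1 libraries lay under the 0.5 FPKM minimum, which UGT1A6 passed through siControl, so only a fall could be called. Its log2 fold change was −0.46 ± 0.15 (SE), with a limma p of 0.02 and a limma adjusted p of 0.168, and without siControl replicate 2 it was −0.24 with a limma p of 0.145. UGT1A1, the bilirubin-conjugating enzyme, went from 2.39 and 2.93 FPKM to 2.01 and 1.64, a log2 fold change of −0.37 ± 0.12 (SE), and lost its call without siControl replicate 2, at −0.26. Of the 12 glucuronosyltransferases, 4 were tested, and these 2 genes fell, beside 5.51% of all tested genes. Since 58.8% of the windows of UGT1A6 and 61.1% of those of UGT1A1 occur in other genes of the locus, as the junctions above show, their values are not independent of each other.

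The other falls were in enzymes of aldehydes and steroids. ALDH3A2, the fatty aldehyde dehydrogenase, fell from 23.9 and 25.2 FPKM to 20.0 and 17.7, a log2 fold change of −0.37. ALDH8A1, of tryptophan breakdown, fell from 3.02 and 3.26 to 2.44 and 2.08 FPKM, a log2 fold change of −0.35. AKR1C2 (−0.31) and AKR1C1 (−0.28), which reduce steroid ketones, and SULT2A1 (−0.25) also fell. AKR1C1 and AKR1C2 had means under 1 FPKM over these 4 libraries, near the 0.5 FPKM minimum. A gene that passes the minimum through siControl alone can only be called as a fall. With a minimum of 1 FPKM neither AKR1C gene was tested, and the count of lower enzyme genes was 6. AKR1C1 and AKR1C2 shared 12.6 and 27.8% of their windows with other genes, mostly with each other. Without siControl replicate 2, the log2 fold changes of ALDH3A2 (−0.33), ALDH8A1 (−0.30), AKR1C2 (−0.28), AKR1C1 (−0.24) and SULT2A1 (−0.22) no longer passed. AKR1C1 and SULT2A1 also lost their calls without siControl replicate 1, at −0.32 and −0.28, and without siUPF1 replicate 2, at −0.23 and −0.17.

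GSTZ1, an isomerase of tyrosine breakdown, had the largest rise on the log2(FPKM + 1) scale, whereas the ratio of mean FPKM was 1.57 for GSTZ1 and 1.82 for ALDH3B1. GSTZ1 was at 4.57 and 5.26 FPKM in siControl and 6.86 and 8.60 in siUPF1, without overlap, and the log2 fold change was 0.56 ± 0.13 (SE), with a limma adjusted p of 0.094. ALDH3B1, which oxidizes aldehydes from lipid peroxidation, rose from 1.08 and 1.19 to 2.03 and 2.10 FPKM, a log2 fold change of 0.52 ± 0.10 (SE), with a limma adjusted p of 0.0793. CYP1A1, which oxidizes polycyclic aromatic hydrocarbons and is the classical target of the aryl hydrocarbon receptor, rose from 36.9 and 38.4 to 49.7 and 51.2 FPKM, a log2 fold change of 0.41 ± 0.09 (SE), with a limma adjusted p of 0.0876. GSTZ1, ALDH3B1 and CYP1A1 kept an unadjusted limma p of 0.05 or lower without each library in turn and after removal of the GC and length trend, as did AADAC and FMO1. These 5 of the 19 genes named for this comparison were called whichever library was left out.

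Of 8 sulfotransferases tested, 5 were higher and 1, SULT2A1, was lower, with a median log2 fold change of 0.31, where 16% of all tested genes were higher and 5.51% lower. After removal of the GC and length trend 2 were higher and 1 lower. SULT1A3, which sulfonates dopamine, was at 2.04 and 1.26 FPKM in siControl and 2.49 and 2.75 in siUPF1, a log2 fold change of 0.47. Its near-identical copy SULT1A4 was at 3.23 and 2.51 and then 3.88 and 4.15, a log2 fold change of 0.38. Almost all windows of these copies on chromosome 16 are shared, so they count as 1 measurement of uncertain split. Without siControl replicate 2 they were at 0.25 and 0.25 and did not pass. SULT1A1, SULT1A2 and SULT1C2 made up the 5, and of the 5 rises only that of SULT1C2 was also called after removal of the GC and length trend. SULT1A1 and SULT1A2 shared 77.6 and 45.9% of their windows with other genes. The 5 rises are therefore not 5 independent measurements.

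Aldehyde dehydrogenases moved both ways, with 5 of 13 tested members higher (ALDH3B1, ALDH16A1, ALDH18A1, ALDH4A1 and ALDH5A1) and 2 lower. This count and those of the families below stand beside 16% of all tested genes higher and 5.51% lower. ALDH18A1 rose from 65.4 and 70.8 to 86.4 and 89.8 FPKM, a log2 fold change of 0.37, and ALDH16A1 from 14.6 and 16.8 to 18.0 and 26.1, a log2 fold change of 0.45. The siUPF1 libraries of ALDH16A1 were far apart, and without siUPF1 replicate 2 its log2 fold change was 0.19 and did not pass, nor did it without siControl replicate 1, at 0.35. ALDH18A1 lost its call without siControl replicate 1, at 0.31. ALDH2, outside the symbol rule and named with its values known, was at 14.4 and 15.2 FPKM in siControl and 15.4 and 15.2 in siUPF1. Its log2 fold change was 0.045, with a limma p of 0.632. Among the remaining families, 3 of 12 glutathione transferases (GSTZ1, GSTM3 and GSTM2), 2 of 10 drug-oxidizing P450s (CYP1A1 and CYP2S1), 1 of 4 aldo-keto reductases (AKR1A1) and 1 of 3 esterases (CES2, which activates ester prodrugs) were higher. None of the 8 fatty acid and vitamin P450s, the 3 sterol P450s, the 2 alcohol dehydrogenases and the 2 acetyl- and methyltransferases tested was called at an unadjusted limma p of 0.05 or lower.

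CES2 was at 3.98 and 4.33 FPKM in siControl and 5.34 and 6.09 in siUPF1, a log2 fold change of 0.38. GSTM3 was at 4.45 and 4.69 and then 6.52 and 5.67 FPKM, a log2 fold change of 0.35. AKR1A1, a general aldehyde reductase, was at 52.2 and 52.6 and then 65.6 and 68.1 FPKM, a log2 fold change of 0.34. In each of these genes both siUPF1 libraries lay above both controls. Without siControl replicate 1 they no longer passed, at 0.33, 0.32 and 0.34, and AKR1A1 also not without siControl replicate 2, at 0.35. The number of calls among the enzyme genes also changed with the library left out, as given in the closing section. The FPKM minimum was applied anew in each such fit, so the genes tested could differ from those of the main fit.

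**Figure D2:**
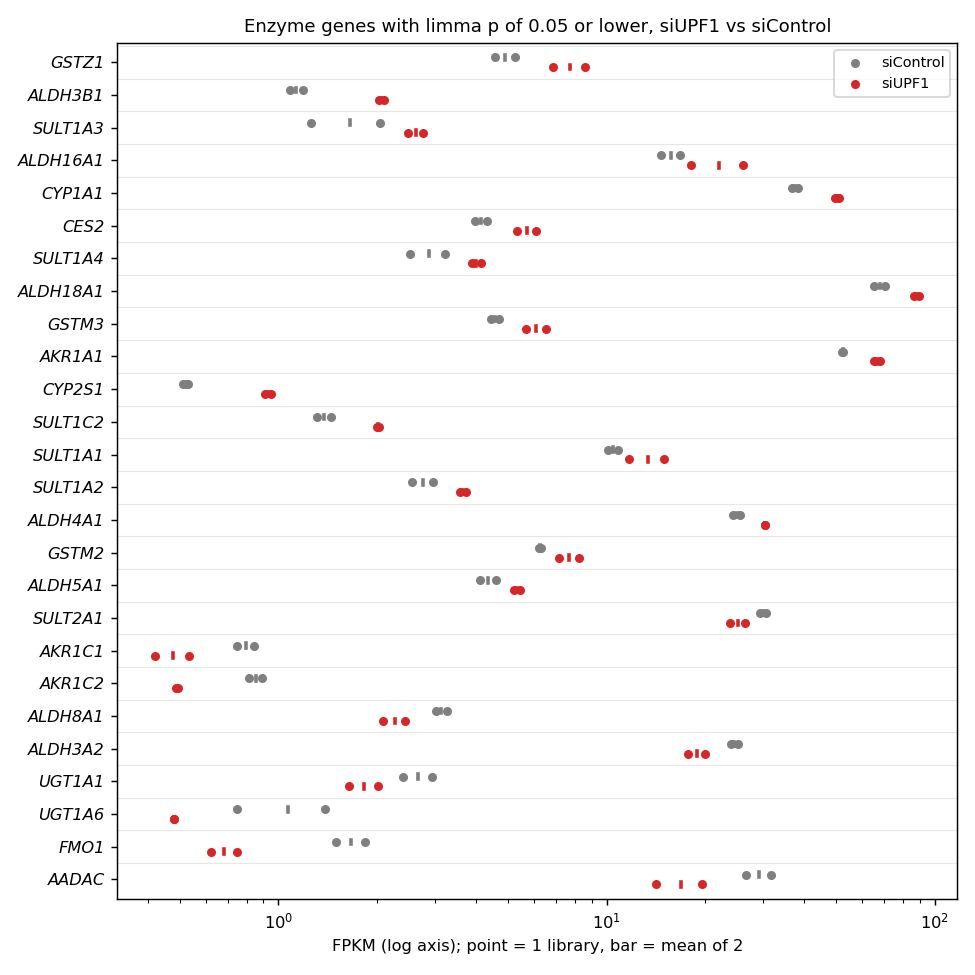
FPKM (log axis) in siControl and siUPF1 of the 26 enzyme genes with an unadjusted limma p of 0.05 or lower; a point is 1 library and a bar the mean of 2, ordered by log2 fold change. The siUPF1 points of GSTZ1 (6.86 and 8.60) lie above its controls and those of AADAC (19.5 and 14.1) below.

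Transcript composition moved with these changes. The 17 higher genes had a median GC content of 54.8% (43.2 to 65.0) and the 9 lower genes one of 44.1% (38.4 to 48.5). Across genes, which are not independent replicates and share libraries, Spearman's rho between GC content and log2 fold change was 0.67 over the 72 members and 0.55 over 12833 genes. After removal of the trend along GC content and length, 10 members were higher, beside 11.2% of all tested genes, and 11 lower, beside 11.4%. All 9 falls were still called and 9 of the 17 rises, the exceptions being ALDH16A1, ALDH4A1, CYP2S1, GSTM2, SULT1A1, SULT1A2, SULT1A3 and SULT1A4. Another scaling of the libraries also moved the split of 17 higher to 9 lower genes, to 12 and 14 with quantile normalization and to 13 and 12 with each library centred on its median.

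**Figure D3:**
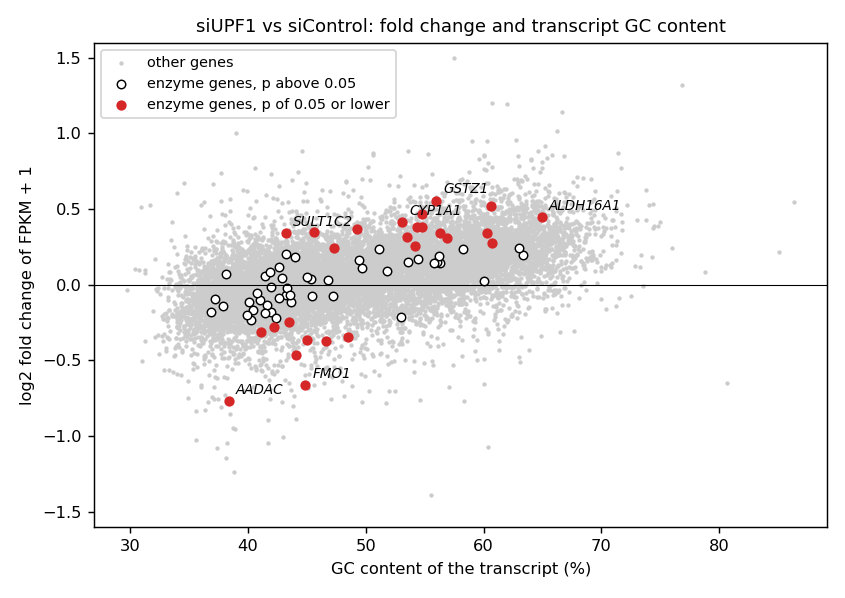
Log2 fold change of FPKM + 1 (siUPF1 vs siControl, y axis) against GC content of the transcript in percent (x axis) for 72 enzyme genes and the other tested genes (grey). Red points are enzyme genes with an unadjusted limma p of 0.05 or lower; AADAC lies at 38.4% GC and −0.77, ALDH16A1 at 65.0% and 0.45.

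Enzyme genes with an annotated NMD transcript were also counted, since UPF1 acts on such transcripts. GENCODE lists at least 1 for 42 of the 96 genes. Of these, 36 were tested, 11 were higher and 4 lower, with a median log2 fold change of 0.13, beside 16% higher and 5.51% lower among all tested genes. Of the 54 genes without one, 36 were tested, 6 were higher and 5 lower, with a median of −0.07. After removal of the GC and length trend the counts were 6 higher and 5 lower with an NMD transcript and 4 higher and 6 lower without one, and the medians 0.06 and −0.01. FPKM per gene does not separate transcripts.

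The second comparison asked whether overexpressed UPF1 changed the same transcripts. Few enzyme genes differed between MYC-UPF1 and MYC. Of 63 tested members (33 lay under the minimum), 2 were higher at an unadjusted limma p of 0.05 or lower, beside 0.619% of all tested genes, and 1 was lower, beside 0.807%. All 3 had a limma adjusted p of 1.00, and 0.00755% of all tested genes had one of 0.05 or lower. After removal of the GC and length trend 2 members were again higher, beside 1.81%, and 1 lower, beside 1.55%. In both fits the 2 higher members were SULT1A3 and SULT1A4, which share almost all their windows and count as 1 measurement. Libraries did not overlap for 11 higher members, beside 8.88%, and 4 lower ones, beside 11.8%. The median log2 fold change was 0.00055, beside −0.01 for all tested genes.

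UGT1A1 was the lower gene, at 1.30 and 1.40 FPKM in MYC and 0.874 and 0.724 in MYC-UPF1, a log2 fold change of −0.39 ± 0.11 (SE) that passed the unadjusted threshold without each library. SULT1A3, at 0.857 and 1.32 and then 1.94 and 1.70 FPKM, had a log2 fold change of 0.44, and its copy SULT1A4, at 1.68 and 2.17 and then 2.84 and 2.75, one of 0.38. The MYC libraries of both copies lay below their MYC-UPF1 libraries. Without MYC replicate 1 the log2 fold changes were 0.28 and 0.26 and neither passed.

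AADAC was at 18.7 and 18.7 FPKM in MYC and 18.4 and 18.8 in MYC-UPF1. The groups overlapped and the log2 fold change was −0.0034 ± 0.095 (SE), positive with quantile normalization (0.023), with median centring (0.0045) and without MYC-UPF1 replicate 1 (0.011). UGT1A6 was at 0.266 and 0.136 in MYC and 0.454 and 0.322 in MYC-UPF1, under the minimum, and was not tested, nor was FMO1, at 0.211 to 0.325 FPKM in these 4 libraries. Of the 26 genes called after depletion, 22 were tested here, with log2 fold changes of −0.39 to 0.44, and 3 were called.

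**Figure D4:**
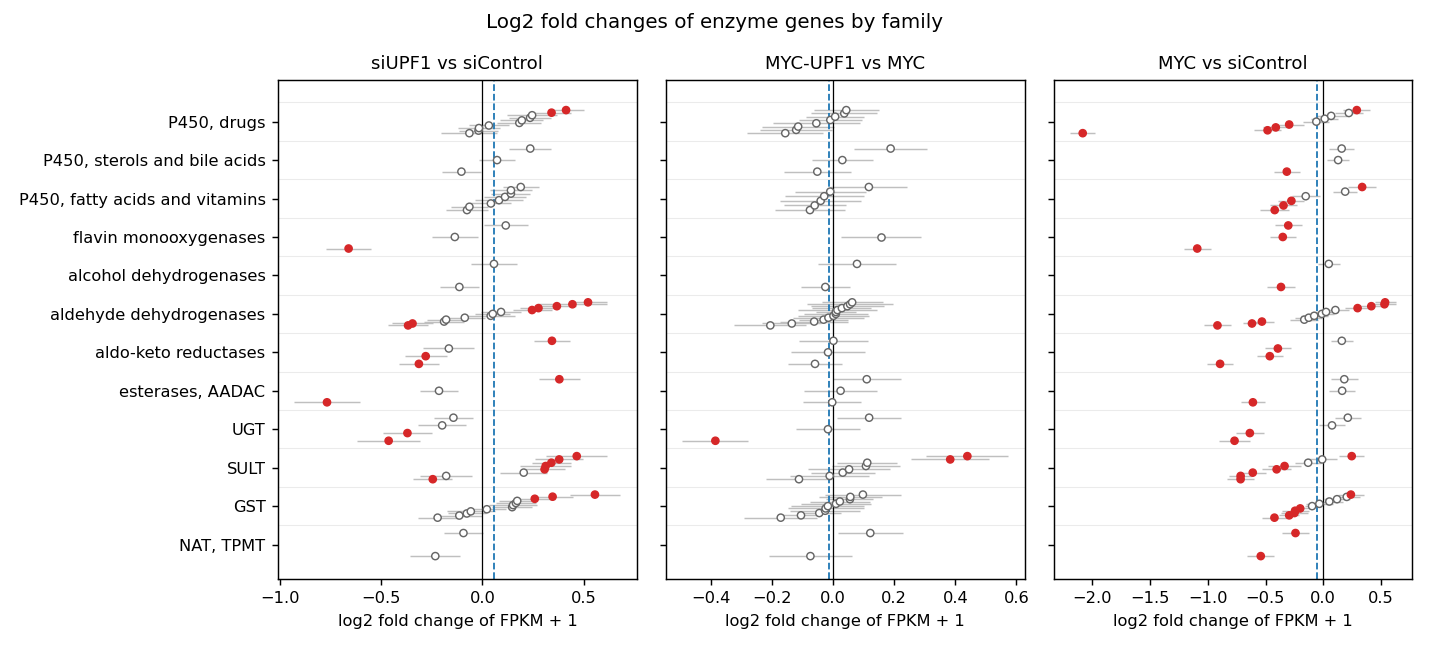
Log2 fold change of FPKM + 1 with its SE (x axis) of each tested enzyme gene by family (y axis) in the 3 comparisons, each with its own scale; red points have an unadjusted limma p of 0.05 or lower and the dashed line is the median of all tested genes. The called genes number 26 for siUPF1 vs siControl, 3 for MYC-UPF1 vs MYC and 41 for MYC vs siControl.

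The effect of depletion was then set against that of overexpression in a single limma fit of all 8 libraries, as the depletion log2 fold change minus the overexpression log2 fold change. Of 67 tested members, 11 had a higher difference at an unadjusted limma p of 0.05 or lower, beside 11.8% of all tested genes, and 7 a lower one, beside 3.4%. None had an adjusted limma p of 0.05 or lower, which 0.0224% of all tested genes had. On this scale the largest positive differences were those of GSTZ1 (0.73 ± 0.17, SE), ALDH16A1 (0.65), CYP1A1 (0.57), ALDH3B1 (0.52), CYP2S1 (0.46) and SULT1A1 (0.43). The largest negative ones were those of AADAC (−0.77 ± 0.20, SE), FMO1 (−0.68), UGT1A6 (−0.67), ALDH3A2 (−0.43), AKR1C1 (−0.39) and CES1 (−0.32), the main carboxylesterase of liver. FMO1, UGT1A6 and AKR1C1 lay under the minimum in the plasmid libraries and entered this fit through the siRNA libraries, so their differences rest on the depletion change. The difference holds the depletion change of the same libraries, and its calls are no separate evidence for that change. For UGT1A1, SULT1A3 and SULT1A4, the genes called after overexpression, it was 0.015, 0.027 and −0.0036. After removal of the GC and length trend 7 differences were higher, beside 8% of all tested genes, and 8 lower, beside 8.1%, and with quantile normalization the counts were 9 and 13.

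Some of these differences rested on single libraries. ALDH16A1 lost its call without siControl replicate 1 (0.56), siUPF1 replicate 2 (0.40), MYC replicate 2 (0.53) or MYC-UPF1 replicate 2 (0.56), and CYP2S1 without MYC replicate 2 (0.32). SULT1A1 lost it without siControl replicate 1 (0.38), siUPF1 replicate 2 (0.26), MYC replicate 1 (0.42), MYC replicate 2 (0.43) or MYC-UPF1 replicate 2 (0.35). CES1, at −0.33 to −0.30, lost it without siControl replicate 1, siControl replicate 2, siUPF1 replicate 1, MYC replicate 1, MYC replicate 2 or MYC-UPF1 replicate 1. The count of higher differences was 6 without MYC replicate 2, 7 without siControl replicate 1 and 7 without MYC-UPF1 replicate 2. The count of lower differences was 4 without siControl replicate 1 and 3 without siControl replicate 2. AADAC, FMO1, GSTZ1, CYP1A1, ALDH3B1 and ALDH3A2 were called in all 8 such fits. UGT1A6 was called in 7 and under the minimum without siControl replicate 2, the library whose removal ended its depletion call, and AKR1C1 was called in 6 and under the minimum without either siControl library.

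The control groups themselves differed in many enzyme transcripts. MYC and siControl differ in the transfected agent, and agent and any batch cannot be told apart. This comparison shares its siControl libraries with the depletion comparison and its MYC libraries with the overexpression comparison. Of 68 tested members, 33 were lower in MYC at an unadjusted limma p of 0.05 or lower, beside 25.6% of all tested genes, and 8 higher, beside 15.4%. The 33 include genes under the 0.5 FPKM minimum in MYC that were tested through siControl, among them FMO1, UGT1A6 and AKR1C1. Only a fall could be called for these. With a minimum of 1 FPKM, 22 members were lower and 7 higher, and the share of all tested genes was not counted in that setting. Of the 68, 29 (42.6%) had an adjusted limma p of 0.05 or lower, beside 29.1% of all tested genes. Of the 10 hepatocyte markers 6 were higher and 2 lower in MYC at an unadjusted limma p of 0.05 or lower, among them TF (0.57), SERPINA1 (0.43) and APOH (−0.38), and of the 2 cholangiocyte markers tested SOX9 was higher (0.41). After removal of the GC and length trend, 8 of the 10 hepatocyte markers were higher and 0 lower, and 2 cholangiocyte markers were higher. The part of these markers in the enzyme differences was not tested. The median log2 fold change was −0.16, beside −0.06 for all tested genes. After removal of the GC and length trend, 23 members were lower, beside 19.8%, and 14 higher, beside 19.4%. With quantile normalization the counts were 27 and 13, and with median centring 25 and 17.

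CYP1A1 had the largest difference on the log2(FPKM + 1) scale, whereas the ratio of mean FPKM was lower for FMO1 (0.15) and UGT1A6 (0.188). CYP1A1 was at 36.9 and 38.4 FPKM in siControl, 49.7 and 51.2 in siUPF1, 7.51 and 8.77 in MYC and 7.56 and 6.82 in MYC-UPF1. All 4 siRNA libraries lay above all 4 plasmid libraries, and the MYC mean was 0.216 of the siControl mean. The log2 fold change of MYC vs siControl was −2.08 ± 0.11 (SE), with a limma adjusted p of 3.85e-11, and leaving out each library gave −2.18 to −1.98. CYP1B1, another target of the aryl hydrocarbon receptor, was at 0.291 to 0.348 FPKM in the siRNA libraries and 0.106 to 0.134 in the plasmid libraries, under the minimum and not tested. The receptor gene AHR was at 10.5 and 10.4 FPKM in siControl, 9.79 and 7.99 in siUPF1, 8.21 and 7.59 in MYC and 7.37 and 8.61 in MYC-UPF1, and its partner ARNT stayed between 8.52 and 9.53. CYP1B1, AHR and ARNT were chosen for naming with their values known.

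The promoters of the enzyme genes were searched for GCGTG, the core at which the aryl hydrocarbon receptor binds, on both strands (CACGC on the other strand). In RefSeq windows of 250 bases before to 50 after the start (GRCh38.p14), 36.5% of 35116 windows held it, and 23 of the 91 windows found for 76 members did (25.3%). The matches of CYP1A1 and UGT1A6, both known targets of this receptor with siRNA libraries above plasmid libraries, and both matches of GSTZ1, which rose after depletion, are shown on the strand of the gene with the core in capitals. They were chosen with these values known.
CYP1A1, chr15:74725568-74725597 (GRCh38, minus strand): ccagggaaggagGCGTGgccacacgtacaa
UGT1A6, chr2:233691490-233691519 (GRCh38, plus strand): gaacaggaactcGCGTGccagccaggtgtg
GSTZ1, chr14:77320830-77320859 (GRCh38, plus strand): gcggggcgggcaGCGTGgtcgcggcccggg
GSTZ1, chr14:77320977-77321006 (GRCh38, plus strand): cccaggtacgggGCGTGgcgggagagctgg
The windows of AADAC, FMO1, UGT1A1 and ALDH3B1 held no match. Matches also lay in windows of ALDH3A2 (2) and SULT2A1 (1), which fell after depletion, and of CES2 (5), which rose. The windows of AKR1A1, ALDH18A1 and CYP2S1, which rose, held none, nor did another window of UGT1A6. Whether matches go with the changes in level was not tested. A match is a description of the letters in this window and not a binding site.

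FMO1 was at 1.84 and 1.50 FPKM in siControl and 0.287 and 0.214 in MYC, a log2 fold change of −1.09, and UGT1A6 at 0.748 and 1.39 and then 0.266 and 0.136, one of −0.77. FMO1 and UGT1A6 lay under the 0.5 FPKM minimum in MYC and were tested through siControl, so only a fall could be called. The same holds for any other gene under the minimum in MYC. Without siControl replicate 2, UGT1A6 was under the minimum and had no value. ALDH8A1 (3.02 and 3.26, then 1.08 and 1.31) and AKR1D1, the steroid reductase of bile acid synthesis (5.40 and 5.56, then 2.49 and 2.49), had log2 fold changes of −0.92 and −0.89. SULT1C4, at 6.18 and 6.74 and then 3.34 and 3.74 FPKM, had one of −0.72. These genes and CYP1A1 were lower in all 4 plasmid libraries than in all 4 siRNA libraries, and their limma adjusted p ranged from 3.85e-11 to 0.00038. AADAC was at 18.4 to 18.8 FPKM in the 4 plasmid libraries, within the range of its siUPF1 libraries and below both siControl libraries, with a log2 fold change of −0.61 ± 0.11 (SE) for MYC vs siControl.

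Aldehyde dehydrogenases went both ways in this comparison, with 4 of 13 tested members higher and 3 lower (ALDH1A1, ALDH8A1 and ALDH3A2). Of all tested genes, 15.4% were higher and 25.6% lower. The median log2 fold change of the 13 members was −0.01. ALDH2, outside the symbol rule, had a log2 fold change of 0.069 and was not called. ALDH18A1 was at 65.4 and 70.8 FPKM in siControl and 96.8 and 101 in MYC, a log2 fold change of 0.53. ALDH4A1 was at 24.3 and 25.6 and then 34.5 and 38.4 FPKM, also 0.53. ALDH3B1 (0.42), CYP26B1 of retinoic acid breakdown (0.34), ALDH16A1 (0.30) and CYP2D7, a close relative of CYP2D6 (0.29), followed. CYP26B1 lost its call without siControl replicate 1 (0.33), siControl replicate 2 (0.34) or MYC replicate 2 (0.20), ALDH16A1 without siControl replicate 1 (0.20) or MYC replicate 2 (0.18), and CYP2D7 without siControl replicate 2 (0.23) or MYC replicate 2 (0.18). The count of higher members was 4 without siControl replicate 1, 5 without siControl replicate 2 and 15 without MYC replicate 1, and that of lower members 20 without siControl replicate 2.

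**Figure D5:**
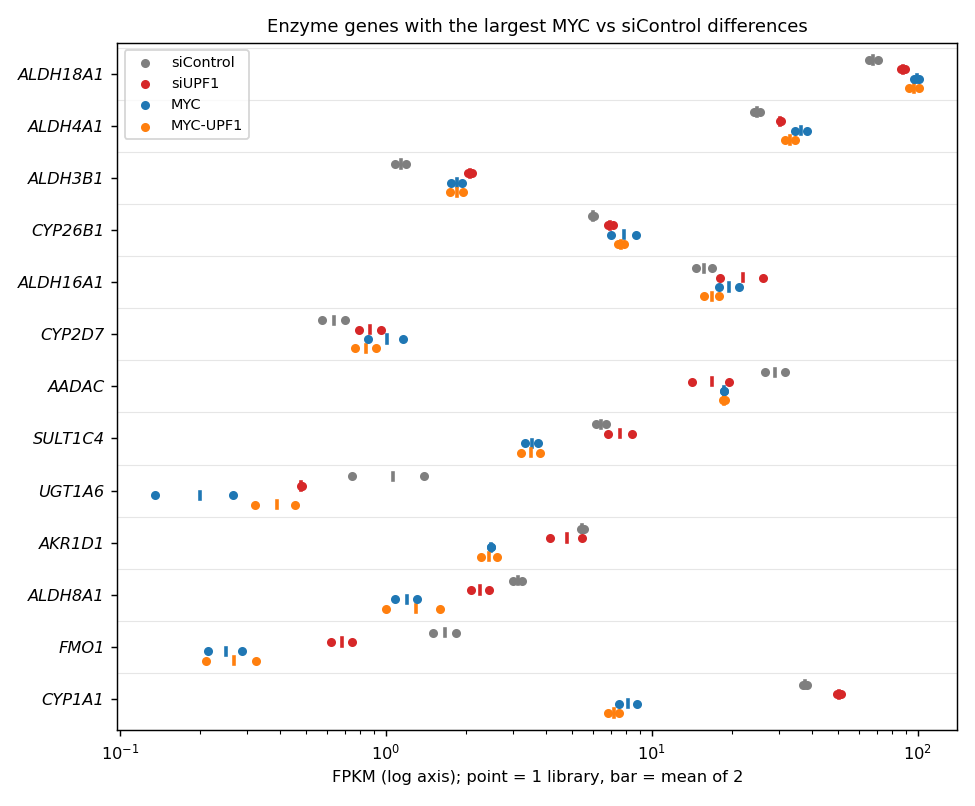
FPKM (log axis) in the 8 libraries of the enzyme genes with the largest MYC vs siControl log2 fold changes of FPKM + 1 in each direction, with AADAC; a point is 1 library and a bar the mean of 2. CYP1A1 lies between 6.82 and 8.77 in the plasmid libraries and 36.9 and 51.2 in the siRNA libraries, and AADAC in siControl (26.6 and 31.7) lies above its other 6 libraries.

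Over all 96 genes, 36 (37.5%) had all 4 siRNA libraries above all 4 plasmid libraries, beside 18.9% of all listed genes. These included ALDH1A1, CYP2C8, CYP3A5, AKR1C3, SULT1E1, SULT2A1, TPMT and UGT1A1. The reverse held for 4 (4.17%, beside 6.14%): CES1, ALDH18A1, ALDH4A1 and UGT2B11. Both siControl libraries lay above the other 6 for 21 members (21.9%, beside 11%), among them AADAC, ADH1A, ADH1C, FMO1, ALDH3A2, UGT1A6 and UGT1A1, and below them for 15 (15.6%, beside 13%), among them ALDH3B1, ALDH18A1, AKR1A1 and CES2. For these 2 sets, siUPF1 and both plasmid groups lay on the same side of siControl. ALDH1A1, at 505 and 539 FPKM in siControl, 469 and 452 in siUPF1 and 339 to 346 in the plasmid libraries, was of the first set.

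Other genes of the pathway were examined from lists outside the symbol rule, to be read beside the 16% of all tested genes that were higher and the 5.51% that were lower after depletion, or 11.2% and 11.4% after removal of the GC and length trend. Of 18 tested genes for electron donors and cofactor supply, 1 was higher and 4 lower after depletion at an unadjusted limma p of 0.05 or lower, with a median log2 fold change of −0.06, and 0 and 7 after removal of the trend. PAPSS2, which makes the sulfate donor of the sulfotransferases, was at 18.6 and 18.8 FPKM in siControl and 15.1 and 12.6 in siUPF1, a log2 fold change of −0.41 that passed without each library. UGDH, which makes the glucuronic acid donor of the UGT enzymes, was at 39.5 and 42.3 and then 33.3 and 29.1, a log2 fold change of −0.38, and CYB5A, an electron donor to P450s, at 13.3 and 13.9 and then 11.3 and 8.93, one of −0.40. Both lost their calls without siControl replicate 2, at −0.34 and −0.37. The fourth fall was that of GCLM (−0.35), of glutathione synthesis, and the rise that of FDXR (0.37), a mitochondrial reductase, both chosen with their values known.

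Of 17 further detoxifying enzymes tested, 2 were higher and 4 lower, with a median of −0.10, and 0 and 5 after removal of the trend. The paraoxonase PON1 was at 18.7 and 19.4 FPKM and then 14.3 and 11.7, a log2 fold change of −0.52, and its relative PON3 had one of −0.40. The microsomal glutathione transferase MGST1 was at 266 and 311 and then 247 and 177 FPKM, a log2 fold change of −0.46. PON1 passed without each library, whereas MGST1 (−0.34) and PON3 (−0.33) did not without siControl replicate 2, nor PON3 without siUPF1 replicate 2 (−0.20). MGST3 (−0.48) was the fourth fall and NQO2 (0.24) was among the rises, again chosen with their values known. Of 16 sensors and regulators, 3 were higher (among them NR1H3 at 0.30 and PPARA at 0.26) and 1 lower (NR5A2 −0.32), but 0 were higher and 6 lower after removal of the trend. Of 14 drug transporters 2 were higher (ABCB4 0.25 and SLC22A9 0.25) and 1 lower (ABCC1 −0.27), and 2 and 2 after removal of the trend. NR1H3, PPARA, ABCB4, SLC22A9 and ABCC1 lost their calls without siControl replicate 1, at 0.26, 0.29, 0.23, 0.16 and −0.32 in that order, and without siControl replicate 2, at 0.33, 0.23, 0.27, 0.33 and −0.21. NR1H3 (0.17), ABCB4 (0.21) and SLC22A9 (0.20) also lost them without siUPF1 replicate 2, and PPARA (0.21) and ABCC1 (−0.17) without siUPF1 replicate 1. No gene of the 4 lists was called after overexpression by limma at an unadjusted p of 0.05 or lower, among 18, 17, 16 and 14 tested. After removal of the trend, 1 electron donor or cofactor gene was higher and 2 were lower. In that fit 1 further detoxifying enzyme was lower, and 0 sensors and 0 transporters were called. Of all tested genes, 1.81% were then higher and 1.55% lower.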

How the data were processed

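RNA was sequenced from 8 Huh7 libraries. The authors trimmed reads, aligned them to hg19, assembled transcripts and deposited FPKM per gene and library. The submitters' processing notes name CASAVA, FastQC 0.11.7, Trimmomatic 0.38, HISAT2 2.1.0 and StringTie 1.3.4d, and list the builds hg19 and mm10. Single-library and series tables were checked against each other, with 0 differences, and 0 values were 0. The commonest ratio between libraries covered 0.384% of 2086 low genes (tolerance 0.1%), so whole reads could not be recovered and depth is unknown.

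Groups were taken from the labels. limma 3.58.1 (R 4.3.3; lmFit, eBayes with a mean-variance trend) was fitted to log2(FPKM + 1) over all genes with a mean of at least 0.5 FPKM, with Benjamini-Hochberg adjustment. An unadjusted p of 0.05, the threshold of the study's methods, was used beside it. The named genes are AADAC and UGT1A6, the 10 largest called rises and falls with non-overlapping libraries after depletion and after overexpression, the 6 largest called each way in the other contrasts, the 12 highest means, the highest of each family, UPF1, and up to 3 of lowest p in each other list. Some genes are not reported here. Members and lists were chosen with earlier results of these data known. Positions, GC content, NMD transcripts and shared windows came from GENCODE on GRCh37 (96 of 96 genes matched). Tables were handled in Python 3.11.15 (pandas 2.3.3). Alternatives were a pseudocount of 0.1, no minimum or one of 1 FPKM, quantile normalization, median centring, 1 fit of all 8 libraries, a replicate block, eBayes without the trend, removal of the GC and length trend (loess, span 0.5) and each library left out.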

Additional observations from a re-analysis of the deposited data

How the results depend on the processing

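Counts moved by over 1.5 times as follows. With an adjusted limma p of 0.05 or lower, depletion, overexpression and the difference of effects had 0 calls each way, and MYC vs siControl 4 higher. With the GC and length trend removed, higher calls were 10 for depletion, 14 for MYC vs siControl and 7 for the difference. Without the FPKM minimum, there were 15 lower for depletion, 4 higher for overexpression and 11 lower for the difference, and with a minimum of 1 FPKM 3 lower for the difference. With quantile normalization, there were 14 lower for depletion, 2 lower for overexpression, 13 higher for MYC vs siControl and 13 lower for the difference. With median centring, there were 17 higher for MYC vs siControl and 12 lower for the difference, and in a single fit of all 8 libraries 5 higher for MYC vs siControl. The cause was not tested. Leaving out 1 library gave 7 to 21 higher and 2 to 15 lower for depletion, 0 to 2 higher and 1 to 2 lower for overexpression, 4 to 15 higher and 20 to 32 lower for MYC vs siControl, and 6 to 14 higher and 3 to 9 lower for the difference. A lone library is then assumed to vary like the others. Except for the adjusted p and the removed trend, the share of all tested genes called was not counted in these settings. Their counts therefore cannot be read as a trait of the enzyme genes. The log2 fold change of AADAC after overexpression, −0.0034, turned positive with quantile normalization (0.023), with median centring (0.0045) and without MYC-UPF1 replicate 1 (0.011), and leaving out 1 library gave −0.017 to 0.011. Of the other values of single genes, 726 kept their direction and side of the threshold and 108 kept their direction but not the threshold.

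Same-numbered libraries share only a number: their deviations correlated at −0.13 for depletion, −0.57 for overexpression and 0.01 for MYC vs siControl. With the replicate block there were 15 higher and 8 lower for depletion, 2 and 1 for overexpression, 9 and 32 for MYC vs siControl and 11 and 7 for the difference. A crossed pairing, chosen after seeing the data, gave 17 higher and 10 lower for depletion and 3 higher and 4 lower for overexpression. Depth is unknown, so counting error in low genes could not be estimated.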
